A study of Mus musculus with 20 samples.

Results

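The 9 genes described here, *Retsat*, *Rbp4*, *Lrat*, *Rdh7*, *Rdh16*, *Adh1*, *Aldh1a1*, *Cyp26a1* and *Rarb*, act in retinoid (vitamin A) metabolism and signalling. They were taken from the count table by gene symbol and are 9 of its 50559 genes. They were chosen by name, with the differences between these same groups of livers already known from earlier work on the table, and which of those measured values led to the choice is not recorded. Differences between groups in these 9 genes are therefore given as descriptions, without p-values, and a gene is called different here where its edgeR quasi-likelihood test gave a Benjamini-Hochberg adjusted p under 0.05 over all genes tested.

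Most of the body's vitamin A is held in the liver as retinyl ester, chiefly in lipid droplets of stellate cells, and hepatocytes release retinol into blood bound to a carrier protein. Retinol is oxidised reversibly to retinal and then irreversibly to retinoic acid, which binds nuclear receptors and turns on target genes, among them the gene for the enzyme that breaks retinoic acid down. Retinol saturase adds hydrogen to retinol instead, giving dihydroretinol.

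RNA-seq was performed on 20 mouse livers, 5 in each of 4 groups, to ask how loss of hepatocyte *Cideb*, which encodes a lipid droplet protein, alters the liver under either of 2 diets. Every mouse carried the floxed *Cideb* fl/fl allele. WT livers came from mice injected with AAV-TBG-GFP, a virus that expresses a fluorescent protein, and KO livers from mice injected with AAV-TBG-Cre, which expresses the Cre recombinase. The TBG promoter is active in hepatocytes, so the deletion was aimed at those cells and not at other cells of the liver. Mice were fed a Western diet (WD) or CDA-HFD, a choline-free high-fat diet with defined amino acids. The labels give 3 months for either diet, whereas the study's account describes longer feeding on WD, and the labels give no age. The labels number the livers without stating that each is a separate animal, so the p-values below measure the spread between these samples. Differences between the diets cannot be told apart from differences between the feeding experiments.

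Between 11697049 and 16827147 reads per liver fell on genes, and the 9 retinoid genes together took 0.380% to 0.701% of them. *Cideb* was at 6.05 ± 1.12 CPM (reads relative to the scaled library total, mean ± SD, n = 5 as in all groups below) in WT and 0.155 ± 0.165 CPM in KO livers on WD, and at 3.05 ± 0.652 and 0.163 ± 0.154 CPM on CDA-HFD, and 1136 of its 1488 exon bases overlap *Nop9* on the other strand. All 10 hepatocyte markers examined, including *Alb* and *Apoa1*, were read in every group, with a summed level of 43423 to 118660 CPM per liver. KO liver 5 on CDA-HFD stood apart from the other 4 of its group. It had the lowest hepatocyte marker sum of the 20 livers, and its stellate cell, macrophage and cholangiocyte marker sums (5051, 2381 and 713 CPM) were the highest of the KO livers and within the range of the WT livers on CDA-HFD. Values without this liver are given beside the results it bears on most.

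The upstream sequences of *Cyp26a1* and *Rarb* are shown first because these are the textbook retinoic acid targets of the set, and their levels are read below as values of the last steps of the pathway. Windows from 250 bases before to 50 bases after each RefSeq start on GRCm38.p6 were searched for a direct repeat of the motif bound by retinoic acid receptors, on both strands. Its accepted spellings were AGGTCA, the related AGTTCA, the related GGGTCA and the related GGTTCA, and any pair of them in the same orientation and 5 bases apart (DR5) was counted. The repeat was present in 2 of the 12 windows of the 9 genes, and in 0.0974% of all 32851 windows (32 of them). *Cyp26a1* and *Rarb* were already known as retinoic acid targets, so nothing is read from that difference. Capitals mark the repeat in the sequences, which are written 5′ to 3′ on the strand of the gene.
*Cyp26a1* (chr19:37697558-37697857, plus strand): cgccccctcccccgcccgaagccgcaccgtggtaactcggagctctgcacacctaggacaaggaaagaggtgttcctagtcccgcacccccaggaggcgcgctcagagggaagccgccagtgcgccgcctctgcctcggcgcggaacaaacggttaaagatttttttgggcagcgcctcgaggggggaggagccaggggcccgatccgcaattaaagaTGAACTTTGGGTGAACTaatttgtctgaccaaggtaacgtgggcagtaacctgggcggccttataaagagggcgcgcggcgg
*Rarb* (chr14:16575427-16575726, minus strand): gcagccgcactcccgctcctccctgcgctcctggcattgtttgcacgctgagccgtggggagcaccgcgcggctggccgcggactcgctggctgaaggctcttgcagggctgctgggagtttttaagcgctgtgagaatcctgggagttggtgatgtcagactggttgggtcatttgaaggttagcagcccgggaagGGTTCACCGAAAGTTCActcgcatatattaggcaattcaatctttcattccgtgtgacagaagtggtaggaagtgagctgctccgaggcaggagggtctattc
In *Cyp26a1* the repeat lay 32 to 16 bases before the start and on the opposite strand, where it reads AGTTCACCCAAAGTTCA. In *Rarb* it lay 53 to 37 bases before the start on the gene's own strand, as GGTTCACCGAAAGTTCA. Pairs 1 or 2 bases apart were not found in the windows of any of the 9 genes, and they were present in 0.222% and 0.268% of all windows. These matches describe letters in a window and were not tested for binding.

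The 9 genes spanned a wide range of levels. Scaled per kb of exon, the carrier *Rbp4* was highest in all 4 groups (1526 ± 262 CPM per kb in WT livers on WD), followed by the alcohol dehydrogenase *Adh1* (837 ± 40.9 CPM per kb), *Rdh7* (378 ± 57.1 CPM per kb) and *Aldh1a1* (264 ± 42.1 CPM per kb). *Retsat* had rank 5 in every group, at 106 ± 22.9 CPM per kb in WT and 241 ± 48.6 CPM per kb in KO livers on WD, where its KO livers overlapped those of *Aldh1a1* on this scale. On CDA-HFD *Retsat* was at 25.0 ± 10.2 CPM per kb in WT and 56.0 ± 22.9 CPM per kb in KO livers. *Rarb* was lowest throughout (2.14 ± 0.626 CPM per kb in WT livers on WD).

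Neighbours in this order were often not separated. *Rdh7* and *Aldh1a1* overlapped between livers in each group except KO on WD, and *Lrat* and *Cyp26a1* overlapped in both WD groups. The ranges of *Lrat*, *Rdh16* and *Retsat* in WT livers on CDA-HFD formed a chain in which each overlapped the next, and *Rdh16*, *Cyp26a1* and *Lrat* formed another in KO livers on that diet. *Cyp26a1* and *Rarb* overlapped only in WT livers on CDA-HFD.

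**Figure D1:**
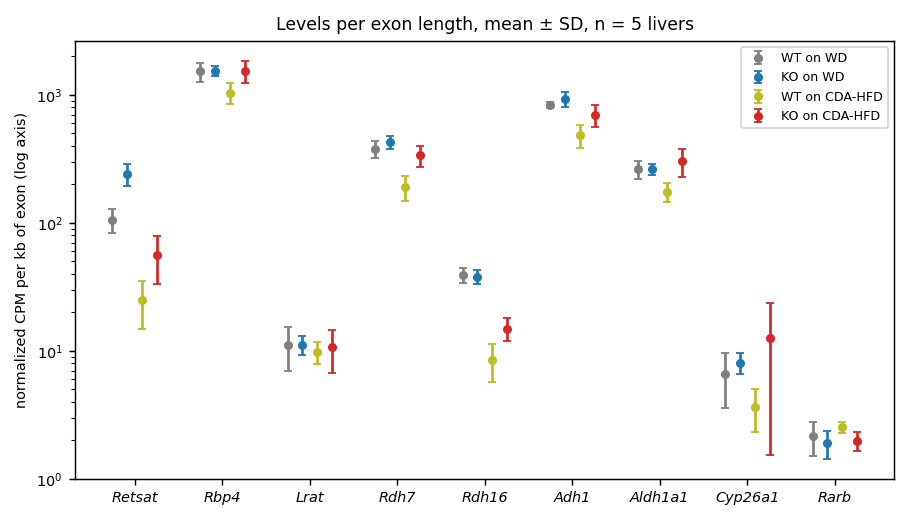
Mean level (± SD, n = 5 livers) of each of the 9 retinoid genes in normalized CPM per kb of exon on a log axis, with 1 colour for each group. *Rbp4* is highest and *Rarb* lowest in every group, and *Retsat* moves furthest between groups among the upper 5 genes, from 25.0 ± 10.2 to 241 ± 48.6 CPM per kb.

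*Retsat* encodes retinol saturase, an enzyme of the endoplasmic reticulum. It was read at 269, 306, 436, 417 and 444 CPM in WT livers 1 to 5 on WD. In KO livers 1 to 5 on WD it was read at 765, 1054, 1023, 734 and 689 CPM. Every KO liver on WD lay above every WT liver, so the groups did not overlap. The KO group was 2.28-fold higher, a log2 fold change of 1.19 ± 0.17 (SE). *Retsat* was the only 1 of the 9 genes called on WD, where 12 genes in all were called (0.0757% of 15848), 2 of them higher in KO livers (0.0126%), and 352 (2.22%) did not overlap. Since these comparisons were open to those who picked the genes, nothing is read from that count. The call was kept in 2 of the 10 fits that left out 1 liver, those without WT liver 3 or KO liver 5, and the log2 fold change ranged from 1.09 to 1.26 over the 10 fits.

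On CDA-HFD *Retsat* was lower in either genotype. WT livers 1 to 5 were at 75.05, 97.0, 93.3, 138 and 38.8 CPM. KO livers 1 to 5 were at 210.3, 223, 200.1, 289.7 and 67.0 CPM. KO livers 1 to 4 lay above all WT livers, and KO liver 5 was below all WT livers but 1. The KO group was 2.23-fold higher, a log2 fold change of 1.16 ± 0.38 that did not pass the threshold, and of 1.38 without KO liver 5. The KO difference was thus of similar size on both diets on the log2 scale, and their difference was -0.02 ± 0.44. Between the diets, *Retsat* was 4.26-fold lower on CDA-HFD in WT livers (log2 fold change -2.09 ± 0.28) and 4.34-fold lower in KO livers (-2.12 ± 0.31), with no overlap in either genotype. These comparisons share their livers with the KO comparisons and are not independent of them. Of the 3537 exon bases of *Retsat* (chr6:72598475-72608425 on mm10, plus strand), 650 are shared with the antisense gene *Gm45053*, and whether the counting used strand is not known.

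**Figure D2:**
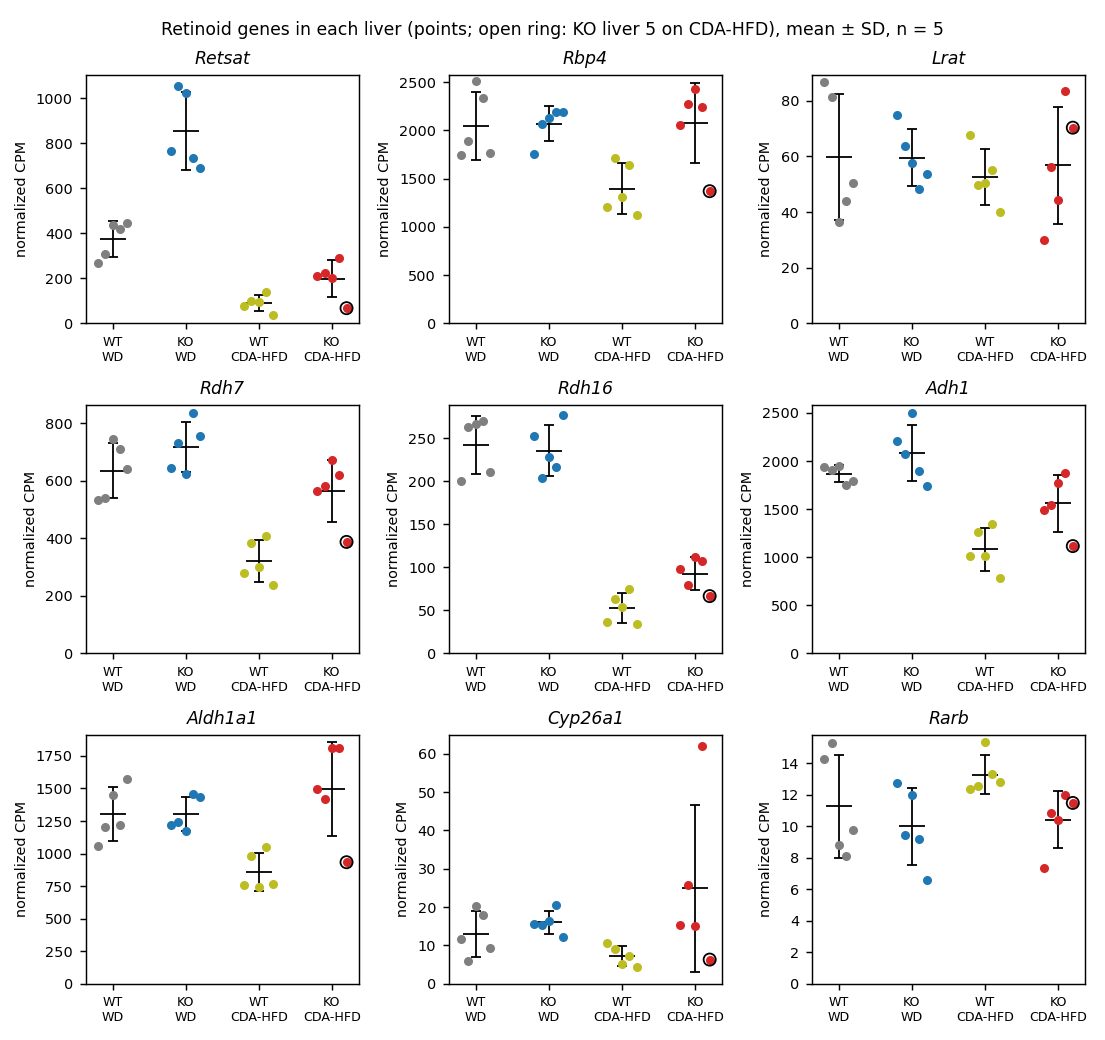
Normalized CPM of each of the 9 retinoid genes (panels, linear axes from 0) in each liver (points) of the 4 groups, with the mean and SD over n = 5 livers and an open ring around KO liver 5 on CDA-HFD. *Retsat* separates KO (689 to 1054 CPM) from WT livers (269 to 444 CPM) on WD, and for 7 genes the ringed liver falls among the WT livers on CDA-HFD while the other 4 KO livers lie above them.

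*Rbp4*, the plasma carrier of retinol, and *Lrat*, which esterifies retinol for storage and is also known from stellate cells, differed little between genotypes on WD. *Rbp4* was at 1745, 1886, 2510.4, 2338 and 1766 CPM in WT livers and 1756, 2072, 2131, 2196 and 2186 CPM in KO livers 1 to 5 on WD. The groups overlapped, with a log2 fold change of 0.02 ± 0.13. On CDA-HFD WT livers were at 1204, 1715, 1308, 1638 and 1121 CPM and KO livers at 2058, 2272, 2430.0, 2241 and 1370.0 CPM. KO livers 1 to 4 were above every WT liver and at the level seen on WD, and KO liver 5 was within the WT range. The log2 fold change was 0.56 ± 0.20, not past the threshold, and 0.68 without KO liver 5. *Rbp4* was lower on CDA-HFD than on WD in WT livers (-0.56 ± 0.17, groups not overlapping) and at the same mean level in KO livers (2074 against 2068 CPM).

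*Lrat* stood at 86.6, 81.5, 36.5, 43.8 and 50.4 CPM in WT livers and 74.9, 63.7, 57.7, 48.3 and 53.5 CPM in KO livers under WD. Under CDA-HFD it stood at 67.8, 49.9, 50.3, 55.1 and 40.1 CPM in WT livers and 30.0, 56.2, 44.2, 83.5 and 70.3 CPM in KO livers. All 4 groups overlapped, and KO livers on CDA-HFD were the most widely spread relative to their mean after WT livers on WD. Its log2 fold changes between KO and WT were 0.00 ± 0.23 on WD and 0.10 ± 0.24 on CDA-HFD. *Lrat* was called in none of the 4 comparisons between groups. Fewer cells of a type and less RNA in each cell cannot be told apart in bulk liver, for this gene or any other.

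*Rdh7* and *Rdh16* encode retinol dehydrogenases of the short-chain family, and *Adh1* an alcohol dehydrogenase of the cytosol that also accepts retinol. On WD their KO and WT livers overlapped. *Rdh7* was read at 535, 542, 746, 710.0 and 642 CPM in the WT and at 645, 732, 623, 835 and 756 CPM in the KO livers 1 to 5, a log2 fold change of 0.18 ± 0.13. *Rdh16* was read at 201, 263, 266, 270.2 and 211 CPM in the WT and at 253, 204, 228, 217 and 277 CPM in the KO livers, a log2 fold change of -0.04 ± 0.11. *Adh1* was read at 1942, 1909.8, 1952, 1751 and 1793 CPM in the WT and at 2204, 2075, 2499.7, 1896 and 1738 CPM in the KO livers, a log2 fold change of 0.16 ± 0.11. None of the 3 genes was called on this diet.

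On CDA-HFD all 3 oxidising enzymes had higher means in KO livers. *Rdh7* was at 279.9, 383, 301, 407 and 237 CPM in WT livers and 564, 582, 671, 619.7 and 388 CPM in KO livers. KO livers 1 to 4 lay above all WT livers and KO liver 5 below the highest of them. The KO group was 1.75-fold higher and was called (0.81 ± 0.19 on the log2 scale, 0.92 without KO liver 5). The call for *Rdh7* was kept in 5 of the 10 fits without 1 liver. *Rdh16* was at 36.1, 63.0, 54.5, 74.8 and 34.5 CPM in WT livers and 98.4, 79.7, 112, 108 and 66.7 CPM in KO livers. The same 4 KO livers exceeded every WT liver, KO liver 2 only narrowly, and the group was called (0.81 ± 0.23, and 0.92 without KO liver 5). For *Rdh16* the call was kept in 3 of the 10 fits. *Adh1* was at 1015, 1258, 1017, 1344 and 781 CPM in WT livers and 1492, 1539.5, 1777, 1871 and 1116 CPM in KO livers. Here too only KO liver 5 fell within the WT range, and the log2 fold change of 0.52 ± 0.19 was not past the threshold (0.62 without that liver).

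Against WD, *Rdh16* had the largest difference of the 9 genes in WT livers and was 4.63-fold lower on CDA-HFD (log2 fold change -2.21 ± 0.21). In KO livers it was 2.55-fold lower (-1.35 ± 0.15), and no CDA-HFD liver of either genotype reached the lowest WD liver. *Rdh7* was 1.98-fold lower in WT livers (-0.99 ± 0.16) and 1.28-fold lower in KO livers (-0.35 ± 0.15), and *Adh1* 1.73-fold (-0.79 ± 0.15) and 1.34-fold lower (-0.42 ± 0.17). The groups separated without overlap for both genes in WT livers, and overlapped in KO livers. Of the 75-base stretches in their exons, 6.11% in *Rdh7* and 9.64% in *Rdh16* occur also in related genes. These lie in the cluster on chromosome 10, such as *Rdh18-ps* and *Rdh16f1*. Part of the reads of *Rdh7* and *Rdh16* may thus fit more than 1 place or gene, and such reads were left out.

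*Aldh1a1* oxidises retinal to retinoic acid. On WD it was at 1056, 1207, 1452, 1222 and 1574 CPM in WT livers and 1216, 1239, 1176, 1457 and 1438 CPM in KO livers, with overlapping groups and a log2 fold change of 0.01 ± 0.13. On CDA-HFD it was at 759, 978, 741, 1051 and 766 CPM in WT livers and 1493, 1423, 1808, 1813 and 933 CPM in KO livers. KO livers 1 to 4 were well above every WT liver, with 2 of them above every liver on WD as well. The KO group was 1.73-fold higher and was called (0.79 ± 0.20, and 0.92 without KO liver 5), a call kept in 3 of the 10 fits without 1 liver. From WD to CDA-HFD the level was 1.52-fold lower in WT livers (-0.61 ± 0.15, no overlap), while in KO livers the log2 fold change was 0.19 ± 0.18 with overlapping groups.

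*Cyp26a1*, the cytochrome that breaks down retinoic acid, and *Rarb*, the retinoic acid receptor β, carry the repeats printed above. *Cyp26a1* was at 11.6, 6.01, 20.3, 17.8 and 9.33 CPM in WT livers and 15.6, 15.2, 16.4, 20.4 and 12.2 CPM in KO livers on WD. The KO livers lay inside or just above the wide WT range, and the log2 fold change was 0.30 ± 0.28. On CDA-HFD it was at 10.6, 9.08, 5.23, 7.10 and 4.22 CPM in WT livers and 15.3, 25.8, 15.1, 62.0 and 6.28 CPM in KO livers. KO livers 1 to 4 were above all WT livers, KO liver 4 far above the rest of its group, and KO liver 5 was within the WT range. The KO group was 3.42-fold higher and was called, with the largest log2 fold change of the 9 genes on that diet (1.77 ± 0.52). The call was kept in 1 of the 10 fits that left out 1 liver, the one without KO liver 5. The log2 fold change was 1.11 without KO liver 4 and 2.03 without KO liver 5.

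Between the diets *Cyp26a1* was 1.81-fold lower on CDA-HFD in WT livers (-0.85 ± 0.33, overlapping groups, kept in 4 of the 10 fits without 1 liver). Among KO livers it had a log2 fold change of 0.62 ± 0.47, one of -0.04 without KO liver 4 and one of 0.87 without KO liver 5. The values of *Rarb* lay otherwise. It was read at 14.3, 15.3, 8.84, 8.12 and 9.77 CPM in the WT and at 12.8, 9.48, 12.0, 9.18 and 6.57 CPM in the KO livers on WD, with a log2 fold change of -0.17 ± 0.22. On CDA-HFD WT livers were at 12.4, 12.6, 15.4, 13.3 and 12.8 CPM and KO livers at 7.37, 10.9, 10.4, 12.0 and 11.5 CPM. Here all 5 KO livers, KO liver 5 included, lay below all WT livers, by -0.36 ± 0.13 on the log2 scale, a difference that was not called. *Rarb* had only 6.57 to 15.4 CPM per liver, and 2020 of its 5265 exon bases overlap *Top2b* or *Gm48162* on the other strand. Reads that fit more than 1 gene were held among the unassigned reads and left out. Where strand was not used, the value of *Rarb* may therefore lack reads from those bases.

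Counted over the 9 genes, 4 were called higher and 0 lower in KO livers on CDA-HFD (*Rdh7*, *Rdh16*, *Aldh1a1* and *Cyp26a1*), where 8.19% of all 17204 genes tested were called higher, 7.29% lower and 15.5% in either direction. Leaving out KO liver 5 raised the number called to 8 of 9, all but *Lrat*, and raised the count over all genes from 2664 to 7201. The number was 0 without WT liver 3 or 5 or without KO liver 1, 2 or 3, 1 without WT liver 1 or KO liver 4, 3 without WT liver 2 and 4 without WT liver 4. The groups did not overlap for *Rarb* alone (9.57% of all genes). In WT livers 7 of 9 were called lower on CDA-HFD, all but *Lrat* and *Rarb*, against 25.2% of 16726 genes called lower and 51.1% in either direction, and 6 did not overlap (37.1%). With scaling by library size only, *Rbp4* (-0.14), *Aldh1a1* (-0.19) and *Cyp26a1* (-0.40) were not called in that comparison, and *Rarb* was called higher (0.64). *Cyp26a1* was called in 3 of 7 alternatives there. In KO livers 2 of 9, *Retsat* and *Rdh16*, were called lower (7.85% of 16387 genes lower, 17.0% in either direction), and the same 2 did not overlap (15.2%). For the difference of the KO effect between diets edgeR called 0 of the 9 and 99 of 17804 genes (0.556%), with 2736 genes at an unadjusted p under 0.05, and DESeq2 called 1 of the 9, *Aldh1a1*. Without KO liver 5 on CDA-HFD edgeR called 5 of the 9 and 2138 genes. All 9 passed the filter on low counts in every comparison.

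The median log2 fold change of the 9 genes was 0.02 for KO against WT on WD and 0.79 on CDA-HFD, and -0.79 for CDA-HFD against WD in WT livers and -0.07 in KO livers. Over all genes tested each of the 4 medians rounded to 0.00 or 0.01 in size. Scaling by library size alone shifted the median of all genes by -0.19 for KO against WT on CDA-HFD and by 0.42 for the diets in WT livers, and relative to those shifts *Retsat* stood at 1.12 and -2.10. Without that reference *Lrat* turned from 0.10 to -0.08 and from -0.19 to 0.21. The other 8 genes kept their direction in these 2 comparisons.

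**Figure D3:**
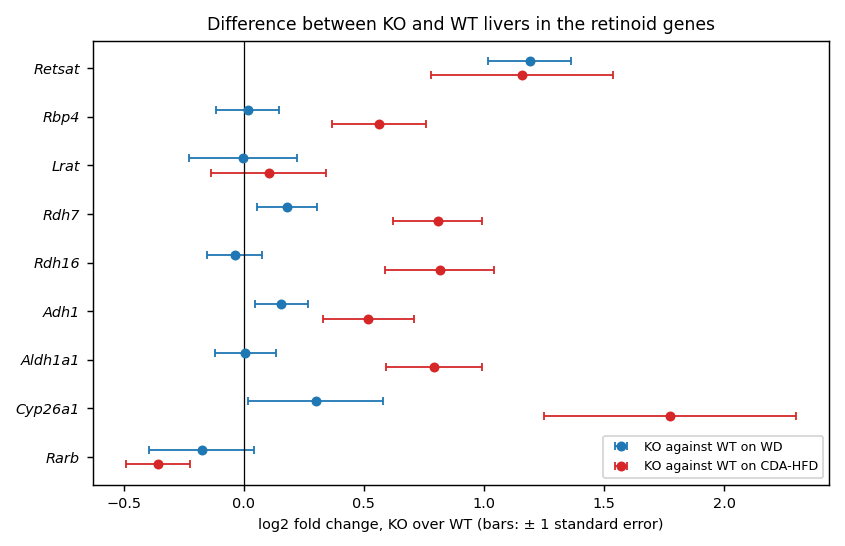
Log2 fold change of KO over WT livers with its standard error (bars) for the 9 retinoid genes on WD (blue) and CDA-HFD (red), from edgeR fits of 10 livers each. *Retsat* lies at 1.19 and 1.16 on the respective diets, whereas *Rdh7*, *Rdh16*, *Aldh1a1* and *Cyp26a1* lie between -0.04 and 0.30 under WD feeding and between 0.79 and 1.77 on CDA-HFD.

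**Figure D4:**
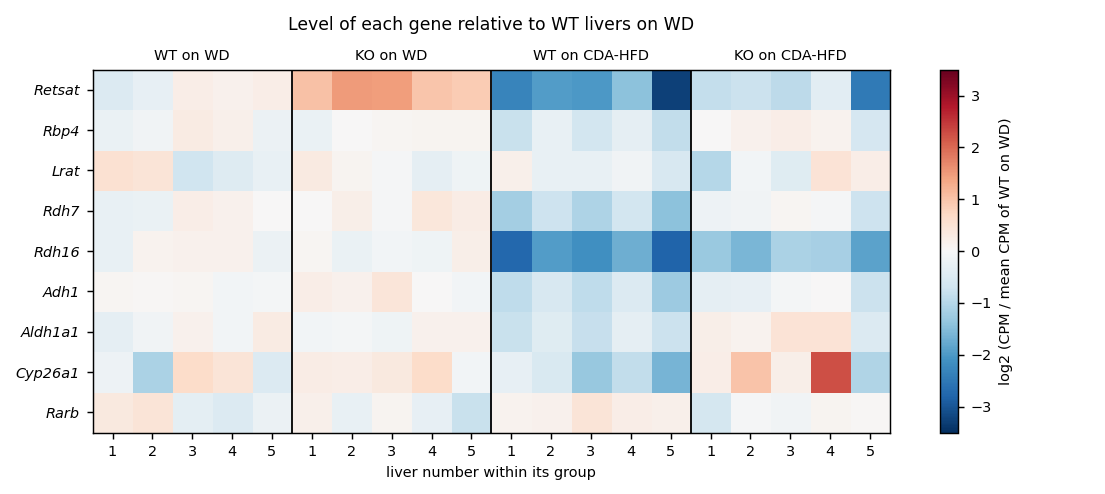
Level of each retinoid gene (rows) in each of the 20 livers (columns) as the log2 ratio of its CPM to the mean of WT livers on WD, red for higher and blue for lower. WT livers on CDA-HFD and KO liver 5 on CDA-HFD share low *Retsat* (38.8 to 138 CPM and 67.0 CPM), and KO liver 4 on CDA-HFD has the highest *Cyp26a1* (62.0 CPM).

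The median sums of markers of other cell types differed between the diets and, on CDA-HFD, between the genotypes. The summed level of 20 stellate cell markers was 3276 to 5086 CPM in WT livers (median 4831) and 2009 to 5051 CPM in KO livers (median 2101) on CDA-HFD, against 1216 to 1936 CPM on WD. The 15 macrophage markers summed to 2012 to 4085 CPM (WT livers) and 824 to 2381 CPM (KO livers) on CDA-HFD. The 8 cholangiocyte markers summed to 399.6 to 854 CPM and 87.1 to 713 CPM. KO liver 5 held the highest sum of its group in each of these 3 lists. The 10 hepatocyte markers summed to 44534 to 87946 CPM in WT livers (median 58197) and 43423 to 118660 CPM in KO livers (median 91449) on CDA-HFD. The 10 endothelial markers summed to 769.9 to 867 CPM in WT (median 831) and 755 to 1110 CPM in KO livers (median 1079) on CDA-HFD. KO liver 5 held the lowest endothelial sum of its group. The 12 lymphocyte markers summed to 15.2 to 30.4 CPM in WT (median 21.6) and 12.6 to 33.8 CPM in KO livers (median 18.2). The ranges of WT and KO livers on CDA-HFD overlapped in every list. Of the genes tested in KO against WT livers on CDA-HFD, edgeR called 3 stellate cell markers higher and 3 lower, and 1 macrophage marker higher and 5 lower. It called 0 in the other 4 lists. Over all 17204 genes tested, 8.19% were called higher and 7.29% lower, and 6076 had an unadjusted p under 0.05. On WD edgeR called 0 in each list, where 0.0757% of 15848 genes tested were called. Every marker was read in each group apart from 1 of the lymphocyte list. The part of cell composition in the levels of the retinoid genes was not tested.

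Genes whose levels followed *Retsat* from liver to liver were ranked by the correlation of log2 CPM after the mean of each group was subtracted, over 20 livers and 11037 genes, as a description. Among the 5 closest were *Ech1*, a dienoyl-CoA isomerase (Pearson r = 0.96, Spearman rho = 0.88), *Decr1*, a mitochondrial dienoyl-CoA reductase (0.96 and 0.78), *Eci1*, an enoyl-CoA isomerase (0.96 and 0.80), and *Ces1d*, a carboxylesterase (0.94 and 0.79). Their r was 0.86 to 0.90 without the 2 livers whose *Retsat* deviated furthest, KO liver 5 and WT liver 5 on CDA-HFD. All points share their library, their depth and the state of the liver. *Ces1d* had means of 664 ± 101 CPM (WT livers) and 939 ± 97.4 CPM (KO livers) on WD, and of 198 ± 76.9 and 412 ± 169 CPM on CDA-HFD. Among the other retinoid genes of the set, *Adh1* came closest to *Retsat* (r = 0.81, rank 201), with *Rdh7* at 0.78, *Rbp4* at 0.76 and *Aldh1a1* at 0.71. *Cyp26a1* (0.67) and *Rdh16* (0.66) followed, and *Rarb* (-0.12) and *Lrat* (-0.14) showed no common course. Without the 2 livers these values were lower, for example 0.59 for *Adh1*.

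Further genes of the pathway were taken from a list of 54, which was compiled with earlier results of these livers known, and 53 of them were in the table. On WD 0 of the 39 that passed the filter on low counts were called in KO livers by edgeR. Of all 15848 genes tested 0.0757% were called, so 0 calls in the list is near that share, and 1702 had an unadjusted p under 0.05. DESeq2 called 1 of the 39, *Aldh1a7* (-0.39), named here after its value was seen, and 164 genes in all. The log2 fold change was 0.18 ± 0.16 for *Ttr*, the carrier that *Rbp4* protein binds in blood, and 0.10 ± 0.09 for *Rxra*, the partner of retinoic acid receptors. *Dhrs3*, a retinal reductase, stood at 0.23 ± 0.10 (edgeR adjusted p = 0.429), and *Rdh11*, a retinol dehydrogenase, at -0.36 ± 0.16 (edgeR adjusted p = 0.454).

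On CDA-HFD 5 of the 40 tested rose in KO livers and 2 fell, where 8.19% of all genes tested were called higher, 7.29% lower and 15.5% in either direction, so that the share of the list was near that of all genes. The median log2 fold change was 0.30 over the 40 and 0.00 over all genes. *Cyp26b1*, another retinoic acid hydroxylase, was at 9.70, 5.49, 5.79, 8.31 and 6.74 CPM in WT livers and 8.90, 25.6, 19.8, 48.7 and 18.6 CPM in KO livers. Only KO liver 1 lay within the WT range, and KO liver 4 was highest, as for *Cyp26a1* (log2 fold change 1.75 ± 0.37, edgeR adjusted p = 0.0171). *Lipe*, a lipase that also hydrolyses retinyl ester, was at 8.24, 12.0, 10.5, 11.1 and 9.06 CPM and 20.9, 19.2, 19.6, 13.6 and 14.5 CPM, with every KO liver above every WT liver (0.79 ± 0.16, edgeR adjusted p = 0.0143). *Aox1*, an aldehyde oxidase that accepts retinal, separated in the same way at 90.7 to 107 CPM in the WT and 131 to 201 CPM in KO livers (0.76 ± 0.12, edgeR adjusted p = 0.00844). *Rara*, the retinoic acid receptor α, rose from 26.6 ± 3.85 to 41.4 ± 6.21 CPM (0.63 ± 0.13, edgeR adjusted p = 0.0167), and *Dhrs4*, a reductase of retinal, from 53.5 ± 10.2 to 87.7 ± 20.4 CPM (0.71 ± 0.19, edgeR adjusted p = 0.0315). The call for *Dhrs4* was kept in 3 of the 10 fits without 1 liver, and those for *Lipe*, *Aox1* and *Rara* in all 10.

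The 2 genes that fell were *Aldh1a2*, a retinal dehydrogenase known from mesenchymal cells, and *Tgm2*, a transglutaminase that retinoic acid induces. *Aldh1a2* was at 5.96, 2.32, 6.997, 2.88 and 7.45 CPM in the WT and 0.417, 0.569, 0.398, 0.587 and 2.45 CPM in KO livers, all low levels, and KO liver 5 alone reached the WT range (-2.51 ± 0.53, edgeR adjusted p = 0.017). The log2 fold change of *Aldh1a2* was -3.37 without KO liver 5. *Tgm2* was at 291.4 to 344 CPM in the WT and 203 to 290.8 CPM in KO livers (-0.45 ± 0.11, edgeR adjusted p = 0.0272). The groups did not overlap, but KO liver 5 (290.8 CPM) lay only just below the lowest WT liver. *Tgm2* was called in 3 of the 10 fits without 1 liver, and 1003 of its 4608 exon bases overlap genes on the other strand. The stellate cell marker sums given above differed between these groups of livers as well, and their part was not tested. *Rxra* (0.54 ± 0.17, edgeR adjusted p = 0.0524), *Ttr* (0.76 ± 0.33), *Dgat1*, which can esterify retinol (0.22 ± 0.09), *Pnpla3*, a lipase linked to retinyl ester release (-0.60 ± 0.23), *Rdh11* (0.21 ± 0.18) and *Dhrs3* (0.14 ± 0.11) did not pass. Without KO liver 5, 21 genes of the list were called, while the count over all genes rose from 2664 to 7201.

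**Figure D5:**
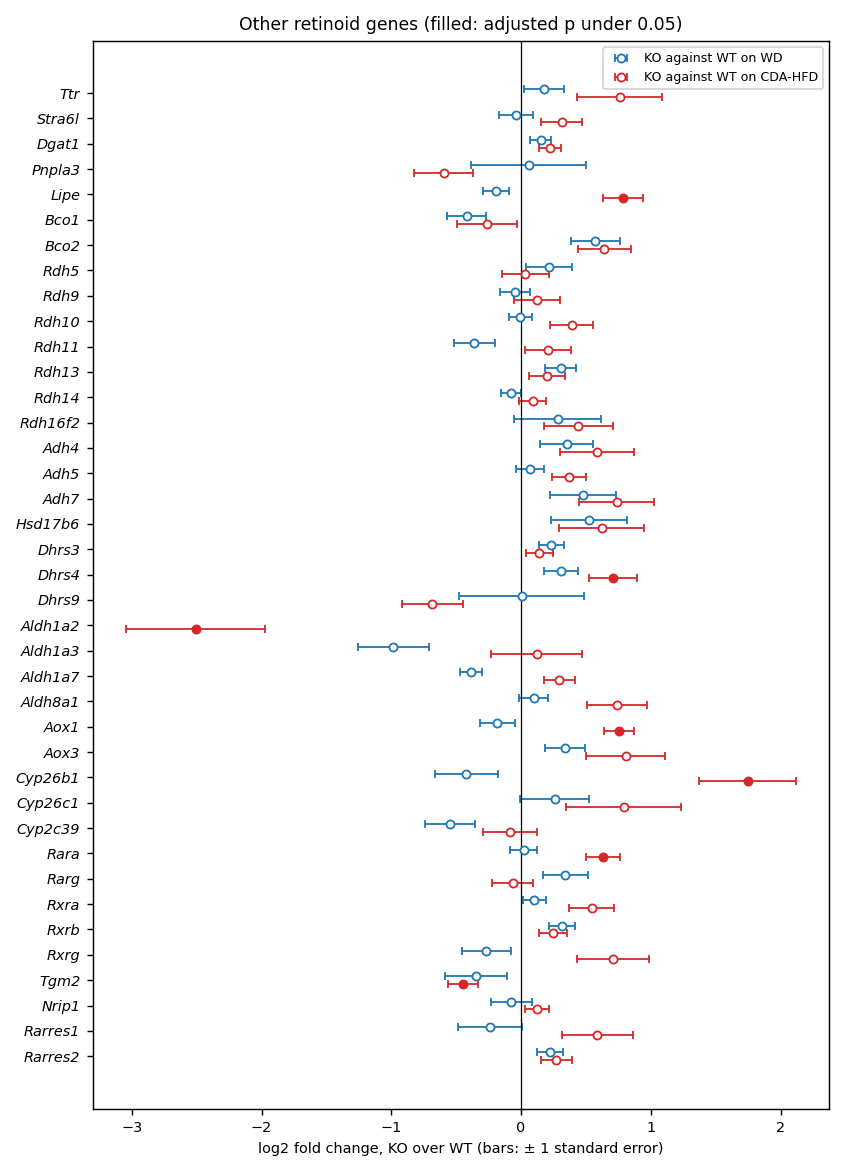
Log2 fold change of KO over WT livers with its standard error (bars) for 39 of the 40 other retinoid genes tested on CDA-HFD (red) and, where tested, on WD (blue), filled where the edgeR adjusted p was under 0.05. No point is filled on WD, and 7 are filled on CDA-HFD, from *Aldh1a2* at -2.51 to *Cyp26b1* at 1.75.

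The list was compiled with earlier results of these livers known, so nothing is read from its share of calls. The difference of the KO effect between diets passed the test for 4 of 40 genes of the list, against 0.556% of all genes tested. In each of them the log2 fold change of KO over WT was higher on CDA-HFD than on WD. On WD it was below 0 and not called by edgeR, at -0.42 ± 0.24 for *Cyp26b1*, -0.19 ± 0.10 for *Lipe*, -0.18 ± 0.13 for *Aox1* and -0.38 ± 0.09 for *Aldh1a7*. The difference between the diets was 2.17 ± 0.47 for *Cyp26b1* (edgeR adjusted p = 0.0431), 0.99 ± 0.18 for *Lipe* (0.0172), 0.94 ± 0.18 for *Aox1* (0.024) and 0.69 ± 0.15 for *Aldh1a7*, a near copy of *Aldh1a1* (0.037). For the 9 genes the same quantity is given as a description, and was 1.48 ± 0.63 for *Cyp26a1*, 0.86 ± 0.26 for *Rdh16*, 0.79 ± 0.23 for *Aldh1a1*, 0.63 ± 0.23 for *Rdh7*, 0.56 ± 0.23 for *Rbp4*, 0.37 ± 0.22 for *Adh1*, 0.11 ± 0.35 for *Lrat* and -0.17 ± 0.27 for *Rarb*.

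Between the diets, 20 of 40 listed genes fell and 6 rose on CDA-HFD in WT livers, where 25.2% of all genes tested were called lower and 51.1% in either direction. Those with the smallest adjusted p included *Pnpla3* (-3.44 ± 0.18, edgeR adjusted p = 6.21e-07), *Lipe* (-1.48 ± 0.11, 6.78e-06), *Cyp26b1* (-2.09 ± 0.18, 1.20e-05), *Aldh1a7* (-1.04 ± 0.11, 3.01e-05), *Aox1* (-0.86 ± 0.10, 5.54e-05), *Dhrs4* (-1.06 ± 0.13, 8.53e-05) and *Rarres1*, a retinoic acid-responsive gene (-1.89 ± 0.27, 0.000174). *Aldh1a2* (3.88 ± 0.43, edgeR adjusted p = 4.52e-05) and *Rarg*, the retinoic acid receptor γ (0.83 ± 0.12, 0.000251), rose. *Ttr* (-1.05 ± 0.24), *Dgat1* (-0.44 ± 0.08), *Rara* (-0.64 ± 0.12) and *Rxra* (-0.55 ± 0.13) were also called lower, and *Rdh11* (-0.20 ± 0.16) and *Dhrs3* (-0.05 ± 0.10) were not called. The rise of *Aldh1a2* went with a rise of most stellate cell markers. Of the 20, 14 were called higher and 3 lower in these livers, where 51.1% of all genes tested were called in either direction. The part of stellate cells in the rise of *Aldh1a2* was not tested.

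In KO livers 8 of 39 fell and 3 rose on CDA-HFD, where 7.85% of all genes tested were called lower and 17.0% in either direction. *Pnpla3* (-4.08 ± 0.55, edgeR adjusted p = 0.000883), *Dgat1* (-0.36 ± 0.09, 0.0166), *Rarres1* (-1.05 ± 0.25, 0.0193), *Dhrs4* (-0.65 ± 0.18, 0.032), *Bco2*, a carotenoid-cleaving enzyme (-0.82 ± 0.23, 0.0335), *Lipe* (-0.50 ± 0.14, 0.0348) and *Cyp2c39*, a retinoic acid hydroxylase (-0.58 ± 0.17, 0.0359), fell. The genes that rose included *Rdh9* (0.97 ± 0.16, edgeR adjusted p = 0.00267) and *Rdh16f2* (1.10 ± 0.27, 0.0201), both of the retinol dehydrogenase cluster on chromosome 10. For *Rdh9*, 65.3% of the 75-base stretches of its exons are shared with related genes, most with *Rdh16f1*. The exons of *Rdh16f1* cover 2302 of the 3590 exon bases of *Rdh9* on the same strand. Since *Rdh16f1* has no row of its own, reads from those bases may come from either gene. *Cyp26b1* stood at 0.08 ± 0.39 and *Rara* at -0.02 ± 0.11 in KO livers.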

How the data were processed

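RNA-seq of 20 livers was analysed from the read counts per gene that the authors deposited, which are whole numbers with no normalization. The submitters' processing notes name the build mm10. The aligner, counter and annotation are not given in the sources used here. The labels name a directional library kit and the study's methods another kit, and whether counting used strand is not known. The 5 closing rows of unassigned reads held 50.3% to 57.0% of all reads, of which reads aligned to more than 1 place made up 18.0% to 28.7% of all reads, and were left out. Reads on genes numbered 11697049 to 16827147 per liver. Groups were taken from the labels. In R 4.3.3, counts were filtered with filterByExpr, scaled by TMM and tested with the quasi-likelihood F test of edgeR 4.0.16 (limma 3.58.1), on the 10 livers of each comparison and on all 20 for the difference of the KO effect between diets, with Benjamini-Hochberg adjustment over all genes tested. A gene was called at an adjusted p under 0.05. The scripts were tested on simulated data for KO against WT on CDA-HFD. In these data 200 of 16882 genes were altered by 1.5 on the log2 scale. There edgeR found 85% of the altered genes, and 4.5% of the genes it called had not been altered. DESeq2 found 90%, but 18.6% of the genes it called had not been altered. Its calls here are therefore not an equally strict check on those of edgeR. CPM are TMM-scaled, and log2 CPM used a prior count of 2. Exon lengths, overlaps and shared 75-base stretches came from GENCODE M21, and promoter windows from RefSeq on GRCm38.p6. Alternatives were other scalings, DESeq2 1.42.0, other filters, a replicate block, 1 fit of all livers, leaving out each liver and, for likeness to *Retsat*, a prior count of 0.5. Plots were made with matplotlib 3.10.9 under Python 3.11.15.

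The 9 genes, the list of 54 other retinoid genes and the lists of hepatocyte, stellate cell, macrophage, cholangiocyte, endothelial and lymphocyte markers were chosen with earlier results of these data known. Of the 54, those named are the genes called in a comparison, at most the 10 with the smallest adjusted p, and *Ttr*, *Dgat1*, *Pnpla3*, *Rdh11*, *Dhrs3*, *Aldh1a2*, *Cyp26b1*, *Rara* and *Rxra* whatever their result. *Rdh16f1* of the list has no row of its own and was not used here, and the marker *Tf* was matched as *Trf*. *Aldh1a2* was tested on CDA-HFD but was below the filter on WD. Some single genes that these rules would name are not reported here, and counts over a list include them.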

Additional observations from a re-analysis of the deposited data

Results flagged for a closer look

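In all, 92 groups of 5 livers were examined. They covered the 9 retinoid genes and the others named for KO against WT on CDA-HFD or for the difference of the KO effect. Of these groups, 4 held 1 liver set apart by a large share of the group's range, where chance gives about 1 in 20 (4.6 of 92). *Rbp4* was lowest in KO liver 1 on WD, at 1756 CPM against 2072 to 2196 CPM in the other 4 livers, a gap of 0.717 of the range. The other 3 were in KO liver 5 on CDA-HFD. *Aldh1a2* was at 2.45 CPM there against 0.398 to 0.587 CPM (0.908 of the range), *Rara* at 30.7 CPM against 41.9 to 45.9 CPM (0.737), and *Tgm2* at 290.8 CPM against 203 to 223 CPM (0.767).

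For 4 genes of the wider list the KO effect differed between the diets by the edgeR test of that difference. It was higher on CDA-HFD by 0.99 on the log2 scale for *Lipe*, by 0.69 for *Aldh1a7*, by 0.94 for *Aox1* and by 2.17 for *Cyp26b1*. Leaving out 1 liver in turn kept the call for *Lipe* in 20 of 20 fits, for *Aox1* in 15, for *Aldh1a7* in 6 and for *Cyp26b1* in 4.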

How the results depend on the processing

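The 9 retinoid genes held 6.57 CPM or more in every liver apart from *Cyp26a1* (4.22 CPM or more), and the parts of depth and of the spread between livers in their errors were not tested. For KO against WT on WD, genes called moved from 12 to 164 with DESeq2, 38 with no filter on low counts, 26 with all 20 livers in 1 fit and 2 with the replicate block, and *Retsat* was not called under the last 2, so that 0 of the 9 genes was called there, while DESeq2 called 1 other retinoid gene. Leaving out 1 liver gave 1 to 33 genes, 0 to 1 of the 9 and 0 of the other retinoid genes. For KO against WT on CDA-HFD, genes called moved from 2664 to 1709 with library size only, 4144 with DESeq2 and 4170 in 1 fit. Of the 9, DESeq2 and the 1 fit each called 7. Of the other retinoid genes, 15, 12 and 16 were called with DESeq2, the replicate block and the 1 fit, against 7. Leaving out 1 liver gave 709 to 7201 genes, 0 to 8 of the 9 and 4 to 21 others. For the diets in WT livers, library size only moved the share of calls that were higher from 50.7% to 85.3% and turned *Stra6l* to 0.015 and *Rdh14* to 0.024 on the log2 scale, both outside the 10 named there. Leaving out 1 liver gave 7549 to 8723 genes, 6 to 7 of the 9 and 25 to 27 others. For the diets in KO livers, 4476 genes were called in 1 fit against 2792, 7 other retinoid genes with the replicate block against 11, and the share of higher calls moved from 53.9% to 85.9% with library size only. Leaving out 1 liver gave 1568 to 2881 genes, 2 of the 9 and 4 to 11 others. The share of higher calls moved from 52.9% to 30.3% for KO against WT on CDA-HFD and from 59.6% to 40.9% for the difference of the KO effect under that scaling. For that difference, genes called moved from 99 to 44 with library size only, 434 with DESeq2, 52 with no filter and 8 with the replicate block. DESeq2 called 1 of the 9 and library size only and the block called 0 other retinoid genes, against 4. Leaving out 1 liver gave 35 to 2138 genes, 0 to 5 of the 9 and 1 to 10 others, with the highest of each count without KO liver 5 on CDA-HFD. The causes were not tested. Deviations of same-numbered livers from their group means had correlations across genes from -0.37 to 0.35. These cannot decide whether the numbers pair livers, and the labels do not say so. The replicate block is therefore only a check. The 4 genes named as most like *Retsat* stayed within the first 6 ranks with a prior count of 0.5 and without KO liver 5.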

Other observations

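KO liver 4 on CDA-HFD held the highest level of its group in 6 of the 9 retinoid genes and in *Cyp26b1*. It was at 289.7 CPM for *Retsat*, 83.5 CPM for *Lrat*, 1871 CPM for *Adh1*, 1813 CPM for *Aldh1a1*, 62.0 CPM for *Cyp26a1*, 12.0 CPM for *Rarb* and 48.7 CPM for *Cyp26b1*. *Pnpla3* spread from 4.25 to 38.2 CPM over the KO livers on WD, where the WT livers held 12.5 to 21.8 CPM.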
